A study of Sus scrofa with 3 samples.

Results

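Macrophage genes and the osteoclast enzyme gene ACP5 were followed over 3 stages of the developing tooth in the pig. The members were the probe sets named AIF1, CD14, CD68, CD163, FOLR2 or ACP5 in the platform's gene table. By that rule 7 of 23999 probe sets, and 5 of the 6765 genes named by the table, were taken: 1 probe set each for AIF1, FOLR2 and ACP5, and 2 each for CD14 and CD163. CD68, a glycoprotein of the lysosomal membrane that is widely used to stain macrophages, had no probe set under its symbol and has no value here.

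The tissue was the last deciduous molar germ of the mandible, with its dental lamina, from Wuzhishan miniature pigs, for which the labels name no treatment and no engineered allele. Germs from 1 litter were pooled on E40 (cap stage), on E50 (bell stage, when the secondary dental lamina starts) and on E60 (secretory stage in the labels, late bell stage in the study's methods). RNA of each pool went onto 1 porcine array from Affymetrix, so no group had a replicate, no p-value could be computed, and every fold change given sets 1 array against another. E50 versus E40 is called the first step, E60 versus E50 the second step and E60 versus E40 the whole span. A different litter, a different dissection and a different stage cannot be told apart in such a design. A signal is the MAS 5.0 summary of a probe set on a linear scale, in arbitrary units, and the authors had scaled the arrays so that their trimmed mean signal was 500.1 each.

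Signals under the 25th percentile of their own array, called the floor here, were raised to it. From E40 to E60 the floor was a signal of 29.3, 17.2 and 21.8. Values given in threes are in the order E40, E50 and E60. A fold change for which 1 signal had to be raised is given as "at least", and a fold over 2 in either direction was called. Levels of different probe sets depend on their probes, so only changes of the same probe set are compared. Skeletal muscle genes were far brighter on E40 than later, with summed signals of 46211, 1152 and 3865 over 17 genes, whereas the enamel matrix gene AMBN and the other tooth germ genes of a list of 9 summed to 7626, 12330 and 70965.

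Macrophages are phagocytes that settle in embryonic tissues from early waves of blood formation and clear dying cells. Osteoclasts are multinucleated cells that form by fusion of precursors of the same myeloid lineage under the growth factors CSF1 and RANKL, and they dissolve mineral and matrix with acid and secreted enzymes. Around a growing tooth germ, osteoclasts resorb the alveolar bone to enlarge the crypt. ACP5, tartrate-resistant acid phosphatase, is the classical osteoclast enzyme, although some macrophages also make it.

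FOLR2 and AIF1 were higher at each step from E40 to E60, CD163 was lowest on E50, and ACP5 was highest on E50. The ACP5 signal on E60 was only 1.07-fold lower than on E50. The arrays were taken as deposited, at equal medians, after quantile normalization and after scaling to housekeeping genes, and the direction of each of these steps was the same under all 4. The size of the ACP5 step was not: ACP5 stayed within 1.2-fold as deposited, but its log2 fold change over the first step was 0.65 at equal medians and 0.42 after quantile normalization, against 0.26 as deposited. Of the 7 probe sets, 0 were called over the first step, 0 over the second and 1, that of FOLR2, over the whole span, where it was higher. Over all 23999 probe sets, 13.9% were called over the first step (1.99% higher, 11.9% lower), 6.39% over the second (4.93% higher, 1.45% lower) and 13.3% over the whole span (3.5% higher, 9.76% lower). A change in the number of macrophages or osteoclasts in the germ and a change in RNA per cell cannot be told apart in pooled tissue.

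FOLR2, the folate receptor beta, is anchored to the cell surface by a lipid and is carried by tissue-resident macrophages. Its signal was 991, 1809.6 and 2712. E60 was the highest array and E40 the lowest, with a 1.83-fold difference over the first step, 1.5-fold over the second and 2.74-fold over the whole span. The last value is 1.45 on the log2 scale and was larger than 98.3% of the log2 fold changes of the 16888 probe sets whose E40 and E60 signals both passed the floor. At equal medians FOLR2 also passed 2-fold over the first step, at 1.26 on the log2 scale against 0.87 as deposited.

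AIF1, also known as IBA1, binds calcium and bundles actin in macrophages and microglia. Its signal was 310, 447 and 609. It was thus 1.44-fold and then 1.36-fold higher, and the 1.97-fold difference between E60 and E40 lay just inside the 2-fold limit. At equal medians this difference was 1.29 on the log2 scale and after quantile normalization 1.14, both past the limit of 1, against 0.98 as deposited.

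CD163 is the scavenger receptor through which macrophages take up haptoglobin bound to haemoglobin. On the brighter of its 2 probe sets the signal was 139, 75.4 and 109. The E50 signal was 1.84-fold lower than that of E40, and the E60 signal was 1.44-fold higher than the E50 signal but remained 1.28-fold under that of E40. The dimmer probe set was under the floor on every array, at 16.2, 6.85 and 13.4, so no fold is given for it.

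CD14, the co-receptor that hands bacterial lipopolysaccharide to TLR4, was dim on both probe sets. The brighter one had signals of 14.8 (under the floor), 23.6 and 33.2. It was 1.41-fold higher over the second step and at least 1.14-fold higher over the whole span, and no fold could be given over the first step because the raised E40 signal passed that of E50. The other CD14 probe set lay under the floor throughout, at 2.43, 17.1 and 3.04. In all, 4 of the 7 probe sets were above the floor on all 3 arrays and 5 on at least 1.

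**Figure D1:**
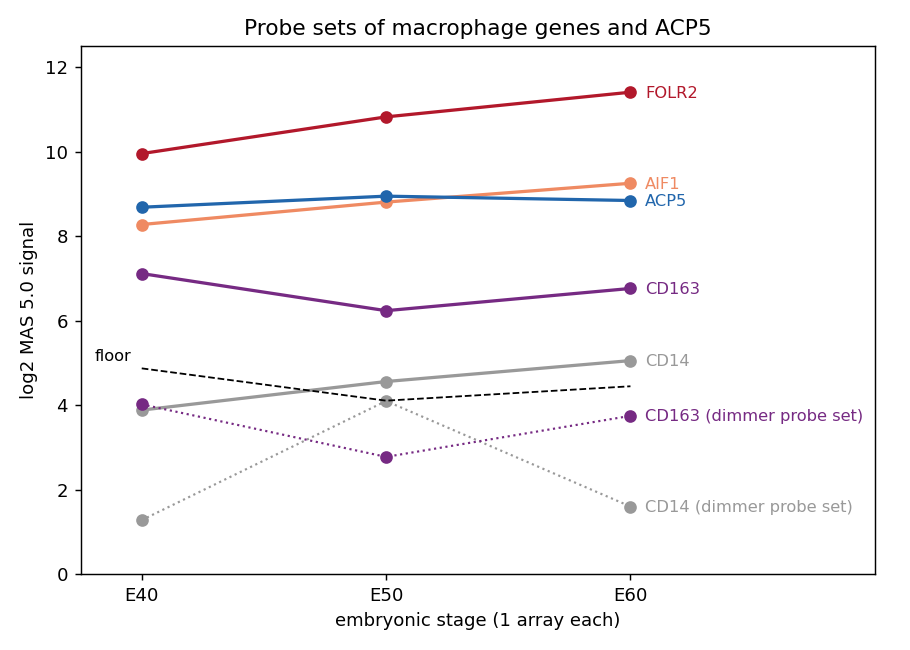
Log2 MAS 5.0 signal (vertical axis) of each member probe set on the E40, E50 and E60 arrays (horizontal axis, 1 array each), with solid lines for the brightest probe set of a gene, dotted lines for dimmer ones and a dashed line for the floor of each array. FOLR2 climbs from a signal of 991 to 2712 while ACP5 runs nearly level, and heights of different probe sets are not comparable.

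The ACP5 signal was 411, 493 and 459. It was 1.2-fold higher over the first step, 1.07-fold lower over the second and 1.12-fold higher over the whole span. As deposited, its largest difference was smaller than any difference of FOLR2, of AIF1 or of CD163 between neighbouring stages. That order depended on the scaling: at equal medians the 0.65 of ACP5 over the first step was larger than the second-step log2 fold changes of FOLR2 (0.51), CD163 (0.45) and AIF1 (0.37), and after quantile normalization its 0.42 was larger in size than the changes of CD163 (-0.38 over the first step and 0.36 over the second).

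Set against ACP5, the macrophage genes went apart at the first step and together at the second. With each gene's ratio to ACP5 taken as 1 on E40, FOLR2 stood at 1.52 on E50 and 2.45 on E60, and AIF1 at 1.2 and 1.76. CD163 stood at 0.454 and 0.701. On E60 versus E50, FOLR2, CD163, CD14 and AIF1 were each higher by 1.36-fold to 1.5-fold while ACP5 was slightly lower, and the log2 fold change of ACP5 minus that of the gene was -0.69 for FOLR2, -0.63 for CD163, -0.60 for CD14 and -0.55 for AIF1. On E50 versus E40 the same difference was -0.61 for FOLR2 and -0.27 for AIF1 but 1.14 for CD163.

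As the one measure of precision in the table, genes with several probe sets above the floor were used. Between 2 probe sets of 1 gene the log2 fold change differed with an SD of 0.77 over the first step (1596 genes), 0.58 over the second (1625 genes) and 0.70 over the whole span (1596 genes), which holds real differences between probes as well as noise and is no spread between animals. The distance of ACP5 from FOLR2 on E60 versus E40, -1.29, and from AIF1, -0.82, exceeded this SD, as did that from CD163 over the first step. Over the second step the distances were close to it. On E60 versus E40 the median log2 fold change of the 4 macrophage genes with a value was 0.58, and ACP5 minus this median was -0.42, less than the SD in size. CD14 enters this median as a lower bound. Without a floor the difference was -0.91, larger than the SD in size, but it then rests on the dim E40 signal of CD14. For single fold changes, the pooled SD among probe sets of 1 gene was 0.55 over the first step and 0.41 over the second. Both ACP5 steps (0.26 and -0.10) and the first step of AIF1 (0.53) were smaller than this in size. The second step of AIF1 (0.45) was little larger, and both steps of FOLR2 and of CD163 were larger.

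**Figure D2:**
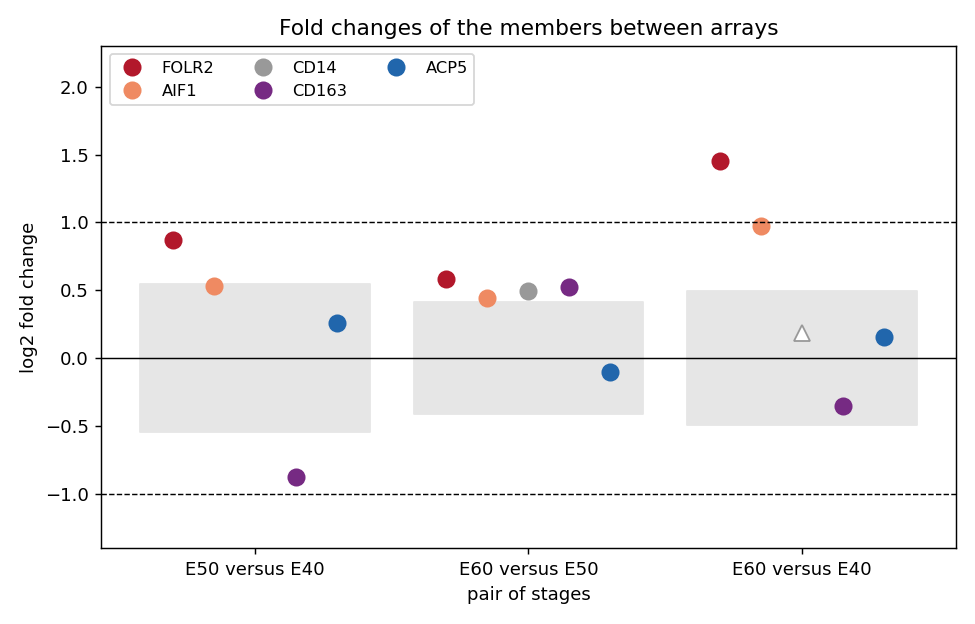
Log2 fold change (vertical axis) of the brightest probe set of each member in the 3 pairs of stages (horizontal axis). Filled circles have both signals above the floor, the open triangle is a lower bound, dashed lines mark 2-fold, and the grey band is the pooled SD of log2 fold changes among probe sets of the same gene (0.55, 0.41 and 0.50); FOLR2 at 1.45 is the only symbol past 2-fold.

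Member fold changes were also set against the median over all probe sets. What moved this median between stages was not tested. Over all probe sets with a fold the median log2 fold change was -0.11 over the first step, 0.02 over the second and -0.11 over the whole span. Relative to these medians FOLR2 stood at 0.98, 0.56 and 1.56, AIF1 at 0.64, 0.42 and 1.08, CD163 at -0.77, 0.50 and -0.24, and ACP5 at 0.37, -0.13 and 0.27. On E60 versus E40 the log2 fold changes of FOLR2, AIF1, ACP5 and CD163 were 1.45, 0.98, 0.16 and -0.35 as deposited. Equal medians and housekeeping scaling move all genes by the same amount and cannot alter their order, and after quantile normalization, which can, the order was the same.

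**Figure D3:**
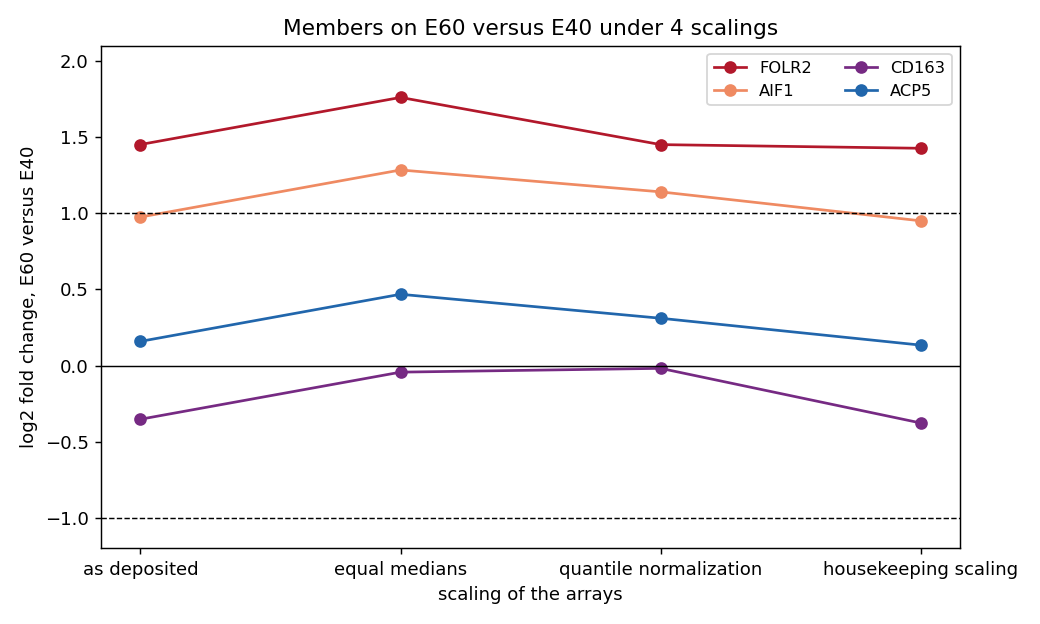
Log2 fold change on E60 versus E40 (vertical axis) of FOLR2, AIF1, ACP5 and CD163 with the arrays as deposited and under 3 other scalings (horizontal axis); dashed lines mark 2-fold. Equal medians and housekeeping scaling shift the 4 genes together by construction, and AIF1 passes 2-fold at equal medians (1.29) and after quantile normalization (1.14).

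A wider list of 45 macrophage genes, of which 30 had a probe set, showed mostly small differences over the first step and higher values on E60 than on E50. On E50 versus E40, 0 of 21 genes with a fold were called higher and 2 lower, with a median log2 fold change of -0.25, which became 0.17 at equal medians and 0.20 after quantile normalization, so its sign depends on the scaling. On E60 versus E50, 6 of 24 were called higher and 0 lower, with a median of 0.45 that stayed above 0 under each scaling (0.15 to 0.45). On E60 versus E40, 1 of 23 was called higher and 0 lower (median 0.27). Another 5 genes, FCGR1A, MARCO, SIGLEC1, CD80 and CCR2, lay under the floor on all arrays, and SIGLEC1 was listed at the lowest value of the table on each.

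The called genes of this list carry out signalling, antigen handling and oxidative killing. TYROBP, the adaptor that carries signals of many myeloid receptors, stood at 101, 8.48 and 103, which is at least 5.84-fold lower and then at least 6.01-fold higher. FCGR3A, an IgG receptor, stood at 112, 48.5 and 115, 2.31-fold lower and then 2.38-fold higher. Both returned on E60 to within 1.03-fold of E40.

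CTSS, a lysosomal protease that trims the invariant chain, stood at 482, 258 and 516 on the brightest of its probe sets and passed the limit on E60 versus E50 with 2.0-fold, and its other 2 probe sets were lowest on E50 as well. CCL2, a chemokine that attracts monocytes, stood at 284, 213 and 461. NCF1, a subunit of the phagocyte NADPH oxidase, stood at 14.4, 26.9 and 64.2, so it was 2.39-fold higher over the second step and at least 2.19-fold higher over the whole span. LY86, a partner of a Toll-like receptor homologue, stood at 26.6, 8.99 and 36.2 and was at least 2.1-fold higher at the second step. Of the 6, NCF1 alone had a higher measured signal on E50 than on E40.

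Bright genes of the list that were not called included LGALS3, a galectin, at 3169, 2277 and 2403, LGMN, a lysosomal endopeptidase, at 1119, 1312 and 1445, and APOE, a lipid carrier, at 576, 619 and 465. C1QC, a chain of complement C1q that tissue macrophages make, stood at 204, 215 and 300, and C1QA at 76.3, 41.8 and 78.7. TLR4, the lipopolysaccharide receptor, stood at 154, 140 and 247, and HMOX1, which degrades haem, at 207, 182 and 249. SPI1, the myeloid transcription factor PU.1, stood at 60.7, 96.5 and 114, higher at both steps like AIF1 and FOLR2. MRC1, the mannose receptor, stood at 219.9, 132 and 141.

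By shape, 12 of the 20 listed macrophage genes above the floor on every array were lowest on E50 (60%) and 5 were higher at both steps (25%), against 33.6% and 16.7% of all 16411 such probe sets. At equal medians 6 of the 20 were lowest on E50 (30.0%, against 19.8%) and 8 higher at both steps (40%, against 23.3%). CD163 thus had the shape of the larger group on the deposited scale, and FOLR2 and AIF1 that of the smaller.

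Genes shared by all leukocytes gave few calls. Of 9 such genes with a probe set, all 7 with a fold were below 0 on E50 versus E40 (median -0.49), though 0 were called. The median was -0.02 at equal medians and 0.14 after quantile normalization. Above the floor were 7 of the genes on E40 and 8 on E50. The gene above it on E50 but not on E40 was left without a fold, since the E40 floor was the higher. On E60 versus E50 the median was 0.48, and 1 of 8 genes, LCP1, an actin-bundling protein, was called higher. LAPTM5, a lysosomal membrane protein of blood cells, stood at 401, 285 and 442, ARHGDIB at 158, 111 and 192, and CORO1A, a regulator of leukocyte actin, at 198, 162 and 122 on the brightest of 3 probe sets. The probe sets of CORO1A disagreed, since another stood at 124, 40 and 116 and was called lower (3.11-fold) and then higher (2.89-fold). PTPRC, which encodes CD45, was under the floor on all arrays. On E60 versus E50 the log2 fold changes of AIF1, CD14, CD163 and FOLR2 differed from the leukocyte median by at most 0.10, while on E50 versus E40 FOLR2 lay 1.36 above it, AIF1 1.02 above it, ACP5 0.75 above it and CD163 at -0.39 from it.

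**Figure D4:**
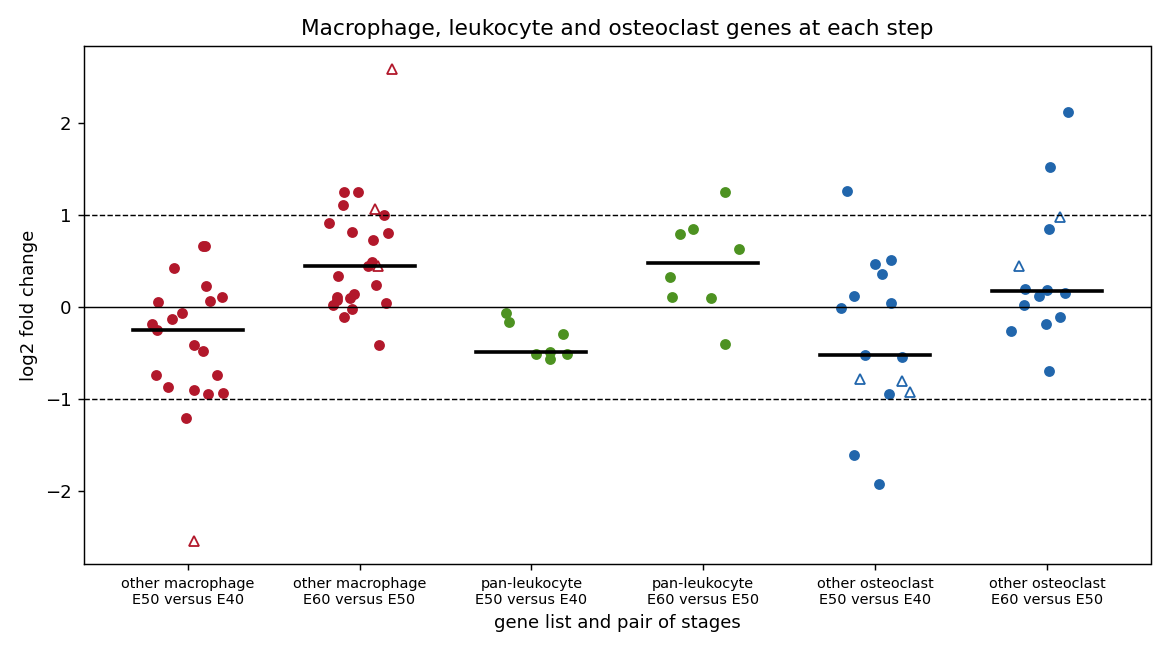
Log2 fold changes (vertical axis) of listed macrophage, leukocyte and osteoclast genes over the first and the second step (horizontal axis), 1 symbol per gene, with open triangles for lower bounds, thick lines for medians and dashed lines for 2-fold. The macrophage median goes from -0.25 to 0.45 and the leukocyte median from -0.49 to 0.48, while the osteoclast median goes from -0.53 to 0.17.

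Genes of antigen presentation by MHC class II, which activated macrophages and dendritic cells carry, had their calls in the direction of higher E60 signals. Of 8 with a fold, 3 were called higher on E60 versus E50, namely SLA-DRB1, SLA-DQA1 and CTSS, and 0 lower (median 0.95, or 0.79 to 0.95 over the scalings). SLA-DRB1 stood at 168, 83.9 and 253. On E60 versus E40, SLA-DQA1 (2.02-fold) and SLA-DMB (2.04-fold) were called higher. On E50 versus E40, SLA-DRB1 was called lower at a fold of 2.0 and the list median was -0.52, or 0.04 after quantile normalization.

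The partners of the single members were followed as well. In the folate list, which includes FOLR2 itself, FOLR1, the alpha receptor of epithelia, stood at 194, 152 and 359 and was called higher on E60 versus E50 (2.36-fold), and SHMT1, a folate enzyme, stood at 493, 271 and 165 and was called lower on E60 versus E40. The folate carrier SLC46A1 stood at 265, 208 and 255, without a call. Of the 4 genes of the list with a probe set, FOLR2 alone was higher at both steps as deposited and after housekeeping scaling, but 3 of the 4 were at equal medians and 2 of the 4 after quantile normalization.

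Of the lipopolysaccharide recognition genes, CD14 included, MYD88, an adaptor of Toll-like receptors, was called lower over the first step (76.3 and 34.8) and LY86 higher over the second, with medians of -0.38 (0.04 at equal medians) and 0.47. LY96, which binds lipopolysaccharide together with TLR4, stood at 310, 213 and 267. Of the genes around the haemoglobin scavenging of CD163, HP, which encodes haptoglobin, stood at 35.3, 20.3 and 56.8 (2.80-fold higher on E60 versus E50). HPX, the haem carrier haemopexin, was at least 2.47-fold higher at that step, and BLVRA, which reduces biliverdin, was called lower over the second step and the whole span (707, 828 and 345). Erythroid genes, which would report blood in the germ, had 1 call in all, AHSP on E60 versus E50 (2.02-fold), and HBB stood at 2038, 1759 and 2341.

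Lysosomal genes, the compartment that CD68 marks, differed little. All 21 with a probe set were above the floor on all arrays. CTSC was called higher over the first step (1564 and 3431), CTSS over the second, and CTSC, CTSH and CTSZ over the whole span, with 0 called lower in any pair. The list medians were 0.21, 0.08 and 0.25 in the order of the pairs. CTSH, an aminopeptidase and cathepsin, was higher at both steps (713, 1325 and 1835), as was CTSZ (533, 706 and 1105).

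Among the other osteoclast genes, the secreted protease gene CTSK was as level as ACP5 on the deposited scale, whereas some others were called. CTSK, cathepsin K, which degrades bone collagen, stood at 1988, 2164 and 2008, within 1.09-fold. SNX10, a sorting nexin needed for bone resorption, stood at 273, 282 and 307, and ATP6V1B2, a subunit of the proton pump, at 1605, 2221 and 2256. TCIRG1, the pump subunit of the ruffled border, stood at 100.3, 69.0 and 78.6 on its brighter probe set, and its other probe set was called lower over the second step and the whole span (88.1, 96.7 and 33.7).

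Of the 15 osteoclast genes with a probe set besides ACP5, 1 was called higher and 2 lower over the first step, 2 of 14 higher and 0 lower over the second, and 0 of 15 over the whole span. NFATC1, the transcription factor that drives osteoclast formation, stood at 72.1, 173 and 107 and was 2.40-fold higher over the first step. ITGB3, a chain of the integrin by which osteoclasts attach, stood at 229, 75 and 216, and its partner ITGAV at 2148, 3058 and 2687. CKB, a creatine kinase that osteoclasts and many other cells use, stood at 818, 215 and 936. ITGB3 and CKB were the 2 genes called lower and then higher.

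Some genes of the list were dim, and those named here were chosen after their values were seen. MMP9, gelatinase B, stood at 30.2, 12.3 and 34.0, with the E50 signal under the floor. CALCR, the calcitonin receptor, stood at 32.7, 8.23 and 23.4 on its brighter probe set, and ATP6V0D2, a pump subunit needed for cell fusion, at 29.6, 13.9 and 12.2. Each was only a little above the floor of 29.3 on E40 and was under the floor on E50. The list's median log2 fold change was -0.53 over the first step and 0.17 over the second. The former was 0.00406 after quantile normalization and -0.02 with 1 common floor for all arrays. On E60 versus E40 the median was 0.01, or -0.01 after housekeeping scaling. Of the 12 genes above the floor on every array, 5 were lowest on E50 (41.7%), 3 highest on E50 (25%) and 3 higher at both steps (25%). Over all 16411 such probe sets, these shares were 33.6%, 28.5% and 16.7%.

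Bone matrix genes, made by the osteoblasts beside which osteoclasts work, had a median below 0 over the first step and above 0 over the second under each of the 4 scalings. Of 9 with a fold, 5 were called lower and 1 higher on E50 versus E40 (median -1.19), and 3 of 10 were called higher and 0 lower on E60 versus E50 (median 0.88). IBSP, bone sialoprotein, stood at 4047, 617 and 4585, POSTN at 7621, 2641 and 4668, and SPP1, osteopontin, to which osteoclasts bind, at 6186, 4539 and 5664. ALPL, the phosphatase of mineralising cells, was the gene called higher (875, 3847 and 5750). The summed signal of the list was 39970, 27973 and 43140, lowest on the same array as that of CD163, and its part in the values of CD163 and ITGB3 was not tested.

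Signals that recruit or form these cells were measured in part, since CSF1, CSF1R, TNFSF11 (RANKL), its receptor TNFRSF11A and its decoy TNFRSF11B carried no name in the table used here. IL34, the other ligand of the CSF1 receptor, stood at 37.3, 33.2 and 40.9. PTHLH, the hormone-like peptide through which tooth germs promote osteoclast formation, stood at 2416, 6534 and 4700 and was 2.70-fold higher over the first step. PTH1R, its receptor, stood at 674, 269 and 224 and was lower over the first step and the whole span (2.51-fold and 3.01-fold).

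CXCL12, a chemokine of precursors, was 2.50-fold lower on E60 than on E50 (911, 870 and 348), and its second probe set stood at 916, 690 and 357. Its receptor CXCR4 stood at 1147, 1841 and 1527. IL1A, an inflammatory cytokine, was 2.58-fold lower over the first step and 4.77-fold lower over the whole span (144, 55.6 and 30.1), while IL1B stood at 86.7, 116 and 108 and TNF at 30.6, 18.3 and 31.9. SFRP1, a Wnt inhibitor, stood at 6820.0, 6370 and 4836 on the brightest of its probe sets. Of the 10 genes of the list with a fold, 1 was higher and 2 lower over the first step, 0 and 1 over the second, and 0 and 3 over the whole span.

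T and NK lymphocyte and neutrophil genes were mostly under the floor on 1 array or more, whereas 2 of 2 B lymphocyte and 2 of 3 mast cell genes were above it on every array. Of 12 T and NK lymphocyte genes with a probe set, 2 were above the floor on every array, and CD3G, CD4 and IL7R lay under the floor on all arrays. CD8A was called higher on E50 versus E40 (at least 2.99-fold), CD2 lower on the same pair and CD247 lower on E60 versus E40. Of 2 B lymphocyte genes, JCHAIN was called higher over the second step (3.12-fold) and the whole span. Of 6 neutrophil genes 1, S100A9, was above the floor on all arrays (100.1, 86.6 and 98.9), and S100A12 was called lower on E50 versus E40. Of 3 mast cell genes, KIT, which other cells also carry, stood at 217, 49.9 and 134 and was called lower and then higher.

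Endothelial genes, whose vessels deliver the precursors, had a median below 0 over the first step in all 4 scalings, with 4 of 11 called lower and 0 higher as deposited (median -0.97), 1 lower at equal medians, and 1 called higher, TEK, on E60 versus E50 (median 0.36). Their summed signal was 3947, 2334 and 3322 in the order of the stages. That of the 9 leukocyte genes was 1042, 783 and 1049 and that of the 30 macrophage genes 7615, 6269 and 7554, each lowest on E50 on the deposited scale, where the median signal of the whole E50 array was also the lowest (164, 125 and 132). Not every list had its lowest sum on E50. The sums of the other osteoclast genes (9035, 9815 and 10542), MHC class II genes (3749, 4445 and 4733) and lysosomal genes (39331, 47316 and 49188) were higher at each step. Such sums follow the brightest genes. As deposited, 9 of 15 other osteoclast genes (median -0.53) and 6 of 8 MHC class II genes (median -0.52) were below 0 on E50 versus E40. Of the lysosomal genes, 16 of 21 were above 0 on that pair. LGALS3 made up the larger part of the difference between E40 and E50 in the macrophage sum, and at equal medians the list medians over this step were 0.17 for macrophage and -0.02 for leukocyte genes. Interferon-induced genes went the opposite way, with 8 of 13 called higher over the first step and 9 lower over the second. The part of endothelial, muscle and interferon-induced genes in the values of the macrophage members was not tested.

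**Figure D5:**
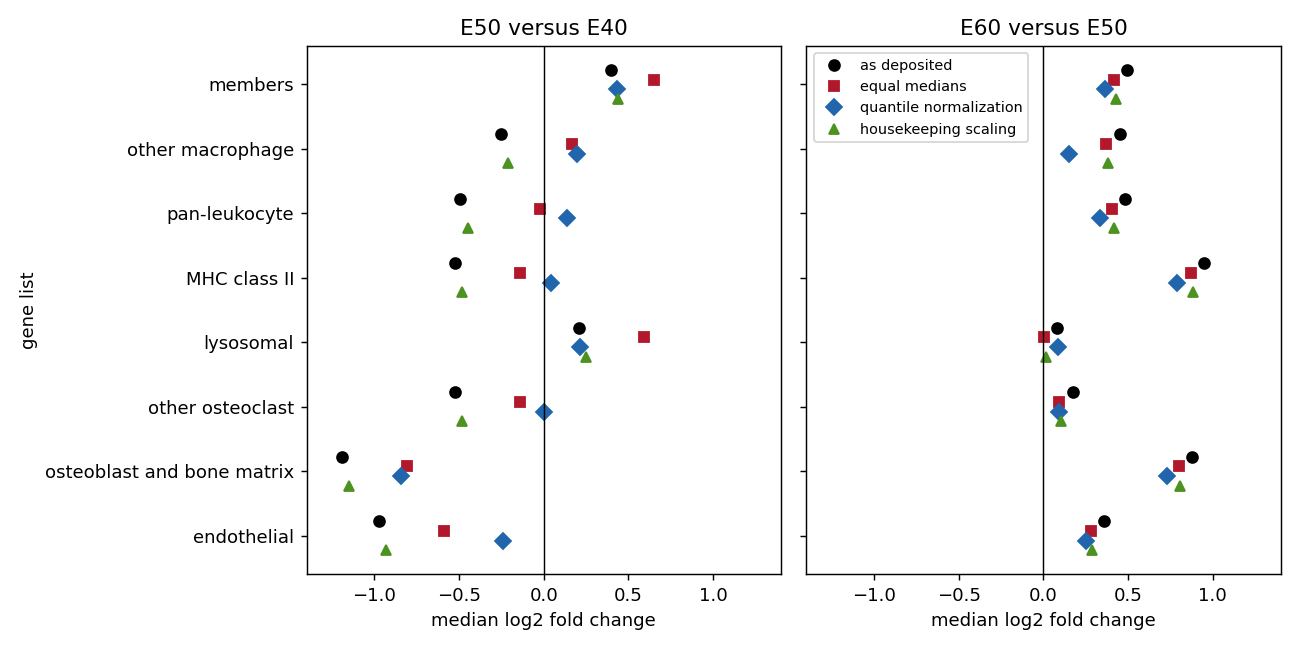
Median log2 fold change (horizontal axis) of gene lists (vertical axis) over the first and the second step under 4 scalings of the arrays, 1 symbol per scaling. On E50 versus E40 the macrophage median lies between -0.25 and 0.20, on both sides of 0, whereas the bone matrix and endothelial medians stay below 0, and on E60 versus E50 the medians shown are at or above 0.

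The genes whose course over the 3 arrays was most like that of each member were found by the root mean square distance between log2 profiles, each centred on its own mean, among 7807 probe sets with 1 symbol that were above the floor on all arrays. Nearest to FOLR2 were TEX9 (distance 0.02; signals of 245, 443 and 684), MRPS36 and CA3, and 17 probe sets lay within 0.1. Nearest to AIF1 were TAGLN2 (1187, 1712 and 2336), PTN and PHLDA3, with 124 within 0.1. Nearest to CD163 were IGFBP6, CDKN1A (1090.1, 593 and 862) and MINK1, with 156 within 0.1. Nearest to ACP5 were RAP1B (1356, 1620.3 and 1518), PSMA6 and GARS, with 1331 within 0.1. On the deposited scale the course of ACP5 was thus shared by more probe sets than that of FOLR2. CD14 was left out because its E40 signal lay under the floor.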

How the data were processed

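Tooth germ RNA of 3 stages was hybridised to 1 Affymetrix Porcine Genome Array per stage, after labelling with a 3′ IVT kit. Per the study's methods the authors computed MAS 5.0 signals in GeneSpring 11.0, and they deposited log2 values, which were used without further transformation. No depth applies to arrays, and their number limits the precision. The 124 control probe sets among 24123 were not analysed. The platform table gave 10069 of the 23999 others 1 symbol, 198 several and 13732 none. Of the first group, 9961 matched a reference table by gene ID and 0 changed symbol. Each gene was read from its brightest probe set (by mean log2 signal over the arrays). Log2 fold changes were differences between 2 arrays (Python 3.11.15, numpy 2.4.6, pandas 2.3.3), and genes whose order was turned by raising a signal to the floor were left without a fold, also in medians. The rules were run on simulated arrays. The planted changes were larger than any member fold change given here and lay in probe sets above the array median. Smaller changes and dim probe sets were thus not tested.

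The members and the 20 gene lists (343 genes, 217 with a probe set; some genes stand in several lists) were chosen with earlier results of these data known. Named genes are all members, up to 12 genes a list for macrophage, osteoclast and growth signal genes (called ones first, then the brightest), the 4 brightest of other lists and the 3 nearest profiles of each member. Others, such as C1QA, MRC1 and SPI1 and the genes behind small counts, were chosen after their values were seen. The alternatives were no floor, a 50th percentile floor, 1 common floor, equal medians, quantile normalization, housekeeping scaling, a 3-fold limit, the mean over probe sets and probe sets without suffixes of shared matches.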

Additional observations from a re-analysis of the deposited data

How the results depend on the processing

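Of 227 values recomputed under the alternatives, 216 stayed within 1.5-fold of the value reported and 11 moved further. Many reported values were smaller than this limit, so a sign could turn within it, and 6 values changed sign, most of them within the limit. Among the fold changes recomputed, that of FOLR2 on E60 versus E40 was the only called one, and it kept its sign. The mean over probe sets and leaving out suffixes of shared matches could not alter the member fold changes. No member probe set carries such a suffix, and the dimmer probe sets of CD14 and CD163 have no fold. These unaltered values are among the 216. Member calls depended on the floor and the scaling. Without a floor 2 member probe sets were called over the first step, 1 over the second and 2 over the whole span, where CD14 then stood at 1.17. Equal medians gave 1 call over the first step and 2 over the whole span, quantile normalization 2 over the whole span, and a 3-fold limit 0 there. A floor at the 50th percentile put the macrophage members at 1.21 and ACP5 minus them at -1.05 on E60 versus E40, with 2 genes left, and the other osteoclast genes at 0.063 on E50 versus E40, with 10 left. Uncalled medians that changed sign with the scaling or the floor included, on E50 versus E40, ACP5 minus the macrophage members (0.15 at equal medians, with CD14 entering). On the same pair the other macrophage, other osteoclast, leukocyte, MHC class II, lipopolysaccharide, folate, haemoglobin, growth signal, erythroid, neutrophil, housekeeping and T and NK genes changed sign. On E60 versus E40 the other osteoclast, growth signal, endothelial, interferon-induced, neutrophil, housekeeping and T and NK genes did so. Endothelial genes, for example, went from -0.27 as deposited to 0.04 at equal medians. Housekeeping genes had medians of 0.06, -0.08 and -0.04 as deposited, with 14 genes and 1 call, lower on E60 versus E50. Dim probe sets such as those of CD14 give bounds at best. No paired analysis was possible because each stage has 1 array. Leaving out a replicate was not possible for the same reason.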
